A study of Drosophila melanogaster with 12 samples.

Results

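The cytoplasmic ribosomal protein genes are described here across 12 Affymetrix arrays of Drosophila melanogaster heads. A gene was included when its symbol starts with RpL (large subunit) or RpS (small subunit), which leaves out the mitochondrial mRp genes, and when at least 1 probe set is annotated to that gene alone. This gave 41 of 11982 named genes on the design with 8 arrays, 16 of the small and 25 of the large subunit, and 37 of 10844 named genes on the design with 4 arrays. All 37 are among the 41. NCBI's RefSeq gene table holds 92 symbols of this form, so 51 on the first design and 55 on the second had no such probe set and are not described.

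All flies expressed CLKGR, known in this field as the clock transcription factor CLOCK joined to the part of the glucocorticoid receptor that binds hormone, and all heads received cycloheximide (CHX), an inhibitor of protein synthesis. The heads were given either dexamethasone (DEX), the glucocorticoid that activates such a fusion, or vehicle. On the 8-array table there were 2 DEX arrays at Zeitgeber time (ZT, hours since lights on) 16, 2 DEX arrays at ZT4, 2 vehicle arrays at ZT16, 1 vehicle array at ZT4 and 1 vehicle array without a labelled time. The 4-array table held 2 arrays labelled DEX and 2 vehicle arrays, none with a labelled time and 1 vehicle array without a replicate number. The labels used here give neither the driver of CLKGR nor the age, sex or number of flies, and do not state whether replicates came from separate flies. The spread between arrays, on which every p-value rests, may therefore be technical. No array lacked CHX, so no level can be set against heads without it.

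Ribosomes translate messenger RNA into protein. Each holds a small subunit, which decodes the message, and a large subunit, which forms the peptide bonds, and each subunit carries its own set of RNA-binding proteins in about equal amounts. The genes for these proteins are among the most strongly transcribed in most cells, and their output is known to be coordinated with growth through pathways such as TOR. Several ribosomal proteins of the fly are encoded by more than 1 gene, and some of these paralogues are known from the germline. Cycloheximide binds the large subunit at the site through which transfer RNA leaves.

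The values are intensities processed with GCRMA, and their natural log was read as a log2 level, because the deposited values exceeded the range of a scanner. With log2 of the deposited values every level, difference and error would be larger by the same factor. The arrays had similar medians over the kept probe sets, 3.45 to 3.51 on the 8-array table and 3.43 to 3.51 on the other. The mean correlation of an array with the others of its table ran from 0.945 (vehicle ZT16 replicate 1) to 0.969 on the 8-array table and from 0.970 to 0.977 on the 4-array table. Of the markers found on the 8-array table, 7 of 9 for neurons and 5 of 5 for photoreceptors had a mean above the filter. Among them elav, a gene of all neurons, read 5.43 to 5.77 and the photoreceptor arrestin gene Arr2 10.24 to 11.17. The neuron markers brp and VGlut did not pass, at 2.58 to 3.23 and 2.45 to 2.56. The clock gene tim, a known CLOCK target that checks the labels, read 9.42 and 8.21 with DEX at ZT16 and 10.58 and 10.30 with DEX at ZT4, against 5.49 and 6.43 with vehicle at ZT16 and 6.70 with vehicle at ZT4. The 4-array table went the other way for tim, with 3.98 and 4.05 on the arrays labelled DEX and 7.77 and 7.87 on the vehicle arrays. Whether the treatment labels of the 4 arrays are exchanged cannot be told from the labels, so directions are given for the arrays labelled DEX. The tables were fitted apart.

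Most ribosomal protein genes read far above the bulk of the array. The median level over the 41 genes was 10.89, against 2.92 over all probe sets of the 8-array table, and over the 37 genes it was 9.79, against 3.08 over all probe sets of the 4-array table. Mean levels above 10 were found for 29 of the 41 genes on the 8-array table. Their probe sets made up 30 of the 158 probe sets of the whole table above that level. Above 10 on the 4-array table lay 14 of the 37 genes, whose 14 probe sets were among 87 of the whole table. A probe set counted as above the filter on dim probe sets when its mean exceeded the 40th percentile of its table, a level of 2.78 on the 8-array table and of 2.92 on the 4-array table. That held for 35 of 41 and for 33 of 37 genes. Levels of different probe sets depend on their probes and do not rank the amounts of the transcripts.

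**Figure D1:**
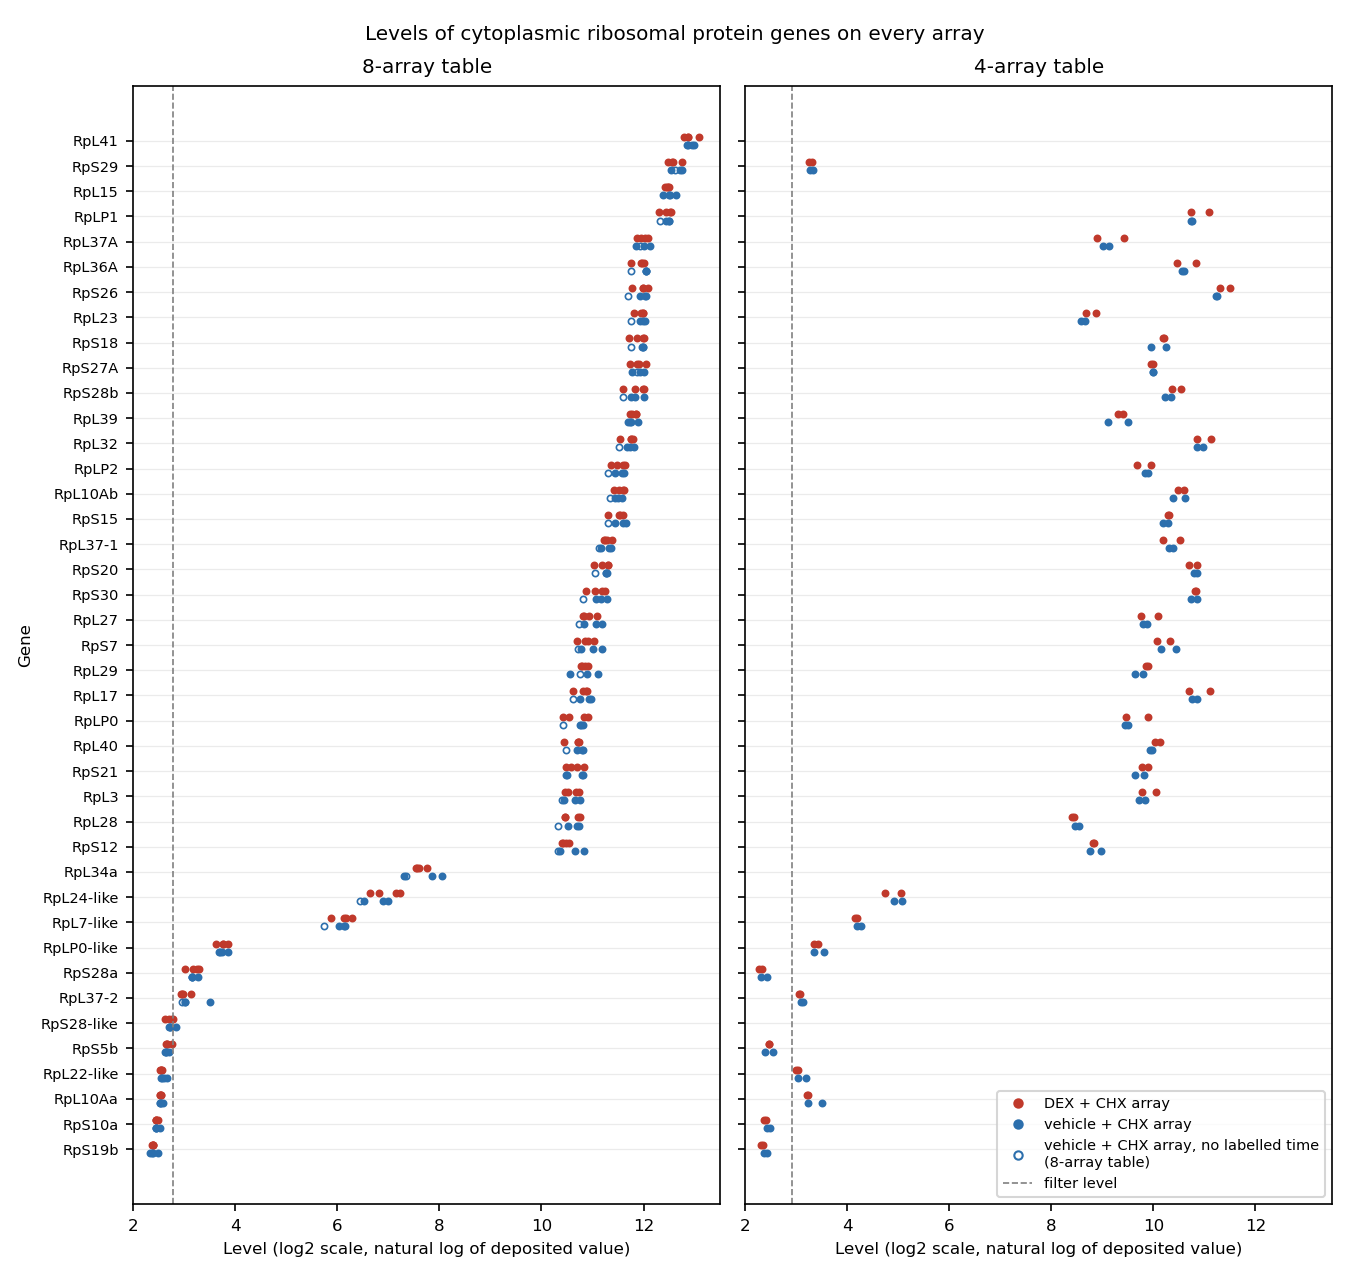
Level of each ribosomal protein gene on every array (horizontal axis, log2 scale) for the 8-array table (left) and the 4-array table (right), 1 point per array, DEX arrays in red above vehicle arrays in blue, with the filter level as a dashed line. In the left panel 29 genes form a block above 10, and a second group lies at or near the filter level of 2.78.

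High readings were found for genes of both subunits. RpL41, a very short basic protein of the large subunit, read 13.09 and 12.79 with DEX at ZT16 and 12.88 and 12.86 with DEX at ZT4, against 12.95 and 13.00 with vehicle at ZT16 and 12.85 with vehicle at ZT4. The small subunit protein gene RpS29 read 12.56 and 12.57 with DEX at ZT16 and 12.76 and 12.48 with DEX at ZT4, against 12.53 and 12.72 with vehicle at ZT16 and 12.76 with vehicle at ZT4. RpL15, of the large subunit, read 12.45 and 12.48 with DEX at ZT16 and 12.51 and 12.41 with DEX at ZT4, against 12.38 and 12.63 with vehicle at ZT16 and 12.50 with vehicle at ZT4. These had the highest means among the ribosomal protein genes of the 8-array table, and in each of them the DEX and vehicle arrays overlapped.

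The stalk of the large subunit, which recruits the GTPases of translation, is built from RpLP0, RpLP1 and RpLP2. Their levels over the 8 arrays ran from 10.41 to 10.90, from 12.31 to 12.54 and from 11.30 to 11.64. RpS27A and RpL40, each made as a fusion with ubiquitin, ran from 11.73 to 12.04 and from 10.43 to 10.82. RpL32, widely used as a reference gene in fly work, ran from 11.53 to 11.82, and RpL3, which reaches into the peptidyl transferase centre, from 10.41 to 10.75. For each of these 7 genes the lowest and the highest array lay within 0.50 of each other on the log2 scale.

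Among the ribosomal protein genes of the 4-array table the highest means belonged to RpS26, which lies where the message leaves the small subunit, RpL32 and RpL17, which lines the exit tunnel of the new peptide. RpS26 read 11.50 and 11.30 on the arrays labelled DEX and 11.23 and 11.24 on the vehicle arrays. RpL32 read 11.13 and 10.85 on the arrays labelled DEX and 10.86 and 10.97 on the vehicle arrays, and RpL17 read 11.10 and 10.70 on the arrays labelled DEX and 10.75 and 10.85 on the vehicle arrays. Of these only the arrays labelled DEX of RpS26 lay above both vehicle arrays.

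Different probe sets of 1 gene did not always read alike. On the 8-array table the 3 probe sets of RpS29 had means of 12.63, 11.96 and 2.86, and the only RpS29 probe set of the 4-array table lay between 3.25 and 3.32. The 3 probe sets of RpL3 had means of 10.58, 5.95 and 2.29. For RpS30, whose mammalian counterpart is made as a fusion with a ubiquitin-like protein, they were 11.08 and 2.69, and for RpS7 10.89 and 2.60. In what follows each gene is represented by its probe set with the highest mean, so a low reading of a gene with 1 probe set may belong to the probe set.

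Where paralogues of 1 protein were both on the array, 1 read high and the other read near or below the filter. RpL10A forms the mobile L1 stalk. RpL10Ab read 11.52 and 11.60 with DEX at ZT16 and 11.61 and 11.41 with DEX at ZT4, against 11.58 and 11.43 with vehicle at ZT16 and 11.50 with vehicle at ZT4. RpL10Aa lay between 2.52 and 2.57 on all 8 arrays, below the filter. The 4-array table showed the same split, with RpL10Ab between 10.38 and 10.63 and RpL10Aa between 3.20 and 3.49, above the filter.

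RpL37, a large subunit protein, had the same kind of pair. RpL37-1 ran from 11.13 to 11.39 on the 8 arrays and from 10.19 to 10.53 on the 4 arrays. RpL37-2 read 2.96 and 3.13 with DEX at ZT16 and 2.94 and 2.98 with DEX at ZT4, against 3.01 and 3.01 with vehicle at ZT16 and 3.50 with vehicle at ZT4. The single vehicle array at ZT4 thus stood above the other 7 arrays of RpL37-2, which lay within 0.20 of each other. Its 4-array values ran from 3.06 to 3.13.

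RpS28, at the message exit of the small subunit, had 3 genes on the 8-array table. RpS28b ran from 11.60 to 12.01, RpS28a from 3.02 to 3.28 and RpS28-like from 2.63 to 2.83. RpS28b ran from 10.23 to 10.54 on the 4-array table, where RpS28a ran from 2.28 to 2.43, below the filter. The high and the low gene of each of these pairs thus kept their places on all arrays that carry both.

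Further genes near the filter are known from the germline or have a partner that is not among the genes described. RpS5b and RpS19b, known from the female germline, lay between 2.61 and 2.76 and between 2.33 and 2.48 on the 8 arrays. RpL22-like, known from the testis, lay between 2.53 and 2.65, and RpS10a between 2.43 and 2.52. All 4 were below the filter on the 8-array table, where RpS19b, RpS10a and RpL10Aa had the lowest means of the 41 genes, and on the 4-array table RpL22-like, with a highest reading of 3.19, was the only one above it. Of the germline markers, 2 of the 6 on the 8-array table and 3 of the 6 on the 4-array table passed the filter. The RNA helicase gene vas ran from 2.72 to 3.18 on the 8 arrays. The marker bam ran from 3.15 to 3.89 on the 4-array table, reaching above the highest reading of RpL22-like.

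Between the block above 10 and the dim genes lay 4 genes on the 8-array table. RpL34a, a large subunit protein gene, ran from 7.31 to 8.05. RpL24-like, RpL7-like and RpLP0-like are related to the yeast ribosome assembly factors Rlp24, Rlp7 and Mrt4 and are not thought to be parts of the finished ribosome. RpL24-like read 7.23 and 6.81 with DEX at ZT16 and 7.14 and 6.63 with DEX at ZT4, against 6.99 and 6.90 with vehicle at ZT16 and 6.52 with vehicle at ZT4. RpL7-like ran from 5.75 to 6.28 and RpLP0-like from 3.63 to 3.86 on the 8 arrays, and on the 4 arrays the 3 genes ran from 4.74 to 5.06, from 4.14 to 4.26 and from 3.34 to 3.54.

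Across the 7 arrays with a labelled time the ribosomal protein genes varied little. The median SD of the 35 genes above the filter was 0.116 on the log2 scale and that of the 29 genes above 10 was 0.113, against 0.210 over all kept probe sets and 0.280 over the other 128 probe sets above 10. Single genes ran from an SD of 0.0707 for RpL23, at the subunit interface, to 0.258 for RpL24-like. This order was not seen on the 4-array table, where the median SD was 0.123 over the 33 genes and 0.110 over all kept probe sets. The differences in spread between gene sets were not tested.

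The genes also deviated together from array to array. Over the 7 timed arrays the median Pearson r between 2 ribosomal protein genes was 0.46, and 487 of 595 pairs (81.8%) were above 0. The same median was 0.07 over 68 mitochondrial ribosomal protein genes, 0.05 over the other 128 probe sets above 10 and -0.01 over all kept probe sets. Among the 29 genes above 10 it was 0.57, with 353 of 406 pairs above 0, whereas among the 6 dimmer genes it was 0.04. These values describe 7 arrays that share 1 normalization.

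**Figure D2:**
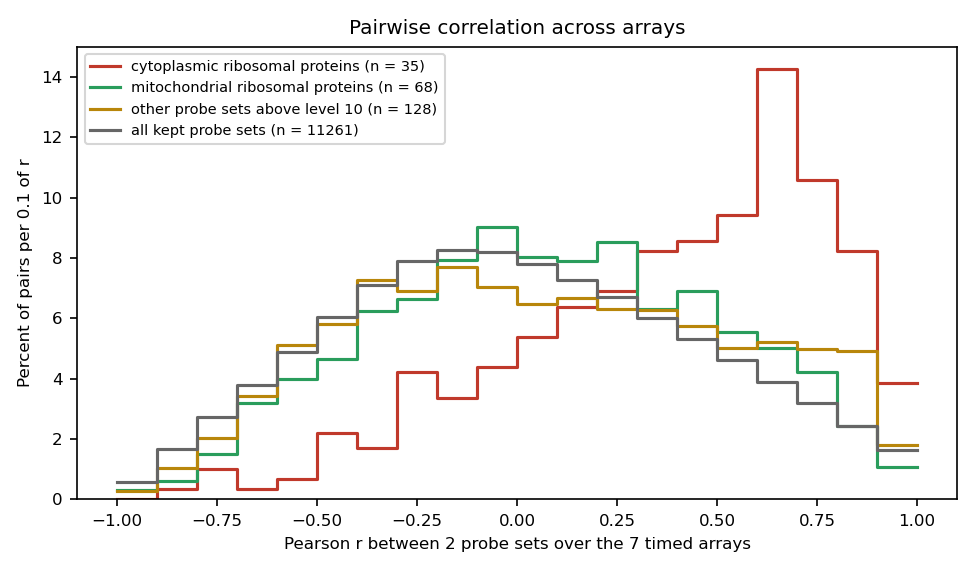
Share of gene pairs (vertical axis, percent of pairs) by their Pearson r over the 7 timed arrays (horizontal axis, steps of 0.1), 1 line per gene set. The line of the 35 cytoplasmic ribosomal protein genes peaks above 0.6 (median 0.46), while those of the mitochondrial ribosomal protein genes, the other probe sets above 10 and all kept probe sets centre near 0.

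The shared deviation remained with treatment and time taken out. With the effects of both removed, the median r over the 35 genes was 0.55, against 0.05 for mitochondrial ribosomal proteins and 0.00 for all kept probe sets (-0.00489 before rounding). In the levels themselves, with treatment and time left in, RpL17, RpS15 and RpS21 had the highest median r with the other ribosomal protein genes. Their values were 0.70, 0.70 and 0.68. RpS15 and RpS21 belong to the small and RpL17 to the large subunit. RpLP0-like, RpL15 and RpL41 had the lowest median r of the levels, at -0.23, -0.18 and 0.08.

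A single array carried much of the shared deviation in the levels, with treatment and time left in. Without DEX ZT4 replicate 2 the median r over the 35 genes was 0.21 and over the 29 genes above 10 it was 0.25, with 65.2% and 65.3% of pairs above 0. The other probe sets above 10 then had 0.02, the mitochondrial ribosomal proteins 0.09 and all kept probe sets -0.01. Leaving out each of the 7 arrays in turn gave medians from 0.21 to 0.52 over the 35 genes. The elongation and ribosome-associated factors, 10 of which were kept, had a median r of -0.03 over the 7 arrays.

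On DEX ZT4 replicate 2 a total of 33 of 35 ribosomal protein genes lay below their own mean of the timed arrays, with a median deviation of -0.16. Of all 11261 kept probe sets 6735 lay below theirs on this array, with a median of -0.02. The vehicle array without a labelled time, which entered neither these means nor the main fits, had 34 of 35 genes below, with a median of -0.20. There 7053 of all kept probe sets lay below, with a median of -0.04. Vehicle ZT16 replicate 2 came next, with 24 genes below and a median of -0.08, where 6564 of all kept probe sets lay below. The remaining arrays had medians of 0.01 (DEX ZT16 replicate 1), 0.05 (DEX ZT16 replicate 2), 0.01 (DEX ZT4 replicate 1), 0.08 (vehicle ZT16 replicate 1) and 0.07 (vehicle ZT4 replicate 2). The lowest arrays thus came from both treatments. Replicates lay on opposite sides of 0 for DEX at ZT4 and for vehicle at ZT16, while both DEX arrays at ZT16 lay above 0.

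Both subunits took part. Of the 11 small subunit genes above 10, all 11 lay below their means on DEX ZT4 replicate 2 and on the vehicle array without a time, with medians of -0.21 and -0.20. Of the 18 large subunit genes above 10, 17 did so on each of these arrays, with medians of -0.15 and -0.20. The exceptions were RpL37-1 on DEX ZT4 replicate 2 and RpL15 on the vehicle array. In whole heads, less messenger RNA per cell and fewer cells with much of it cannot be told apart.

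**Figure D3:**
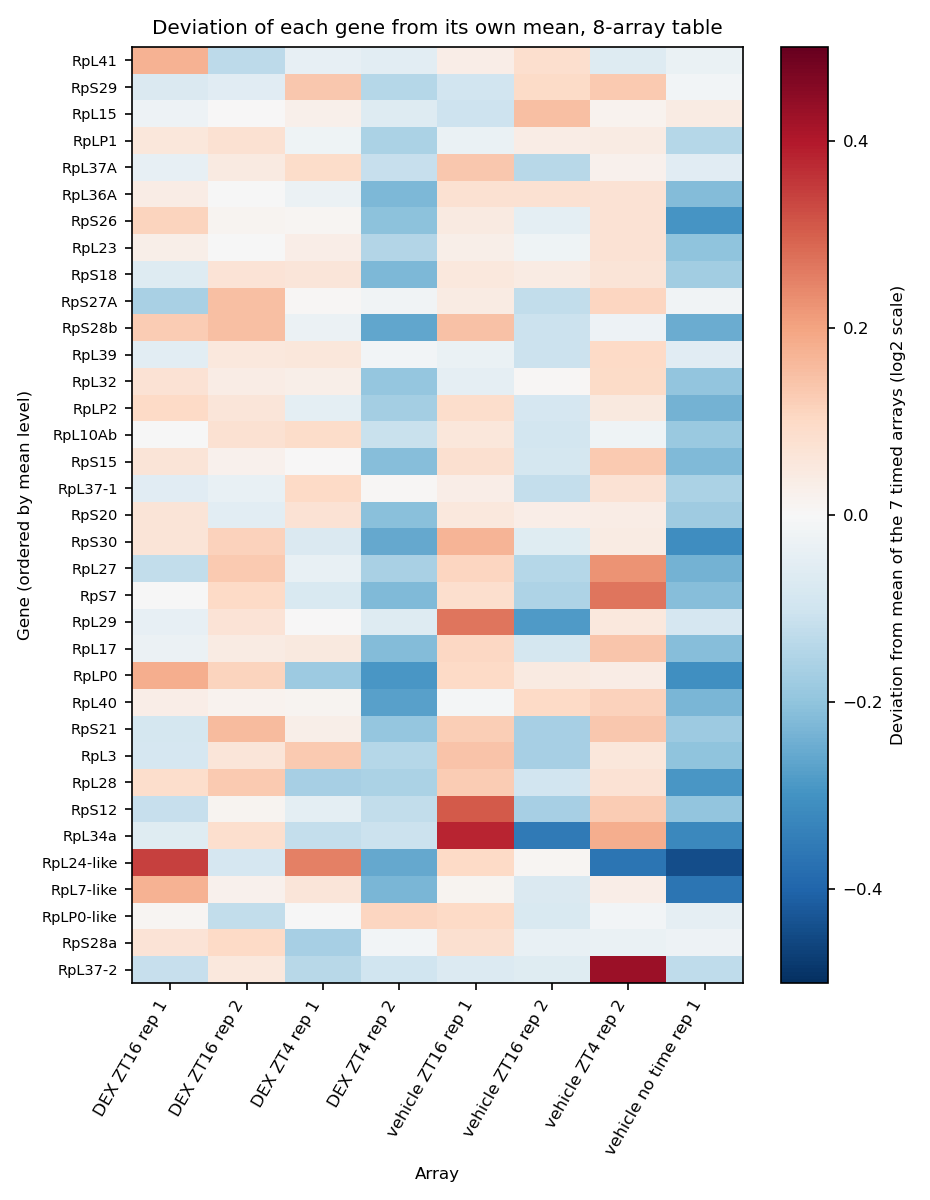
Deviation of each ribosomal protein gene above the filter from its own mean over the 7 timed arrays (colour, log2 scale), with genes ordered by mean level and 1 column per array, DEX arrays left of vehicle arrays. The columns of DEX ZT4 replicate 2 and of the vehicle array without a labelled time are almost wholly blue, with 33 and 34 of 35 genes below their mean. Of all 11261 kept probe sets 6735 and 7053 lay below theirs on these arrays.

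Array medians of the fat body, neuron and photoreceptor markers varied more than those of the ribosomal protein genes and in another order. The medians of the ribosomal protein genes ran from -0.20 to 0.08. Those of 3 muscle markers ran from -0.09 to 0.20 and those of 2 germline markers from -0.04 to 0.20. The fat body markers, 6 of 7 listed genes, among them the yolk protein genes Yp1, Yp2 and Yp3, had median deviations of 0.06 and 0.36 with DEX at ZT16 and of -0.62 and 0.16 with DEX at ZT4, against 0.35 and -0.75 with vehicle at ZT16, 0.67 with vehicle at ZT4 and -0.16 on the vehicle array without a time. The summed level of the 6 fat body markers ran from 15.18 to 16.11 on the DEX arrays and from 14.89 to 16.25 on the vehicle arrays, whereas that of the 35 ribosomal protein genes ran from 16.37 to 16.55 and from 16.37 to 16.58. Neuron markers were at 0.31 and 0.27 with DEX at ZT16 and at -0.30 and -0.35 with DEX at ZT4, against 0.07 and 0.18 with vehicle at ZT16, -0.26 with vehicle at ZT4 and -0.23 on the vehicle array without a time. Photoreceptor markers were at 0.71 and 0.00 with DEX at ZT16 and at -0.30 and -0.36 with DEX at ZT4, against -0.16 and 0.48 with vehicle at ZT16, -0.45 with vehicle at ZT4 and -0.53 on the vehicle array without a time. Both lists were thus below 0 on all 3 arrays at ZT4 and on the vehicle array without a time. The ribosomal protein genes were lowest on DEX ZT4 replicate 2 and on the vehicle array without a time. Their medians on the other arrays at ZT4 were 0.01 (DEX replicate 1) and 0.07 (vehicle replicate 2). The part of cell makeup in the shared deviation was not tested.

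**Figure D4:**
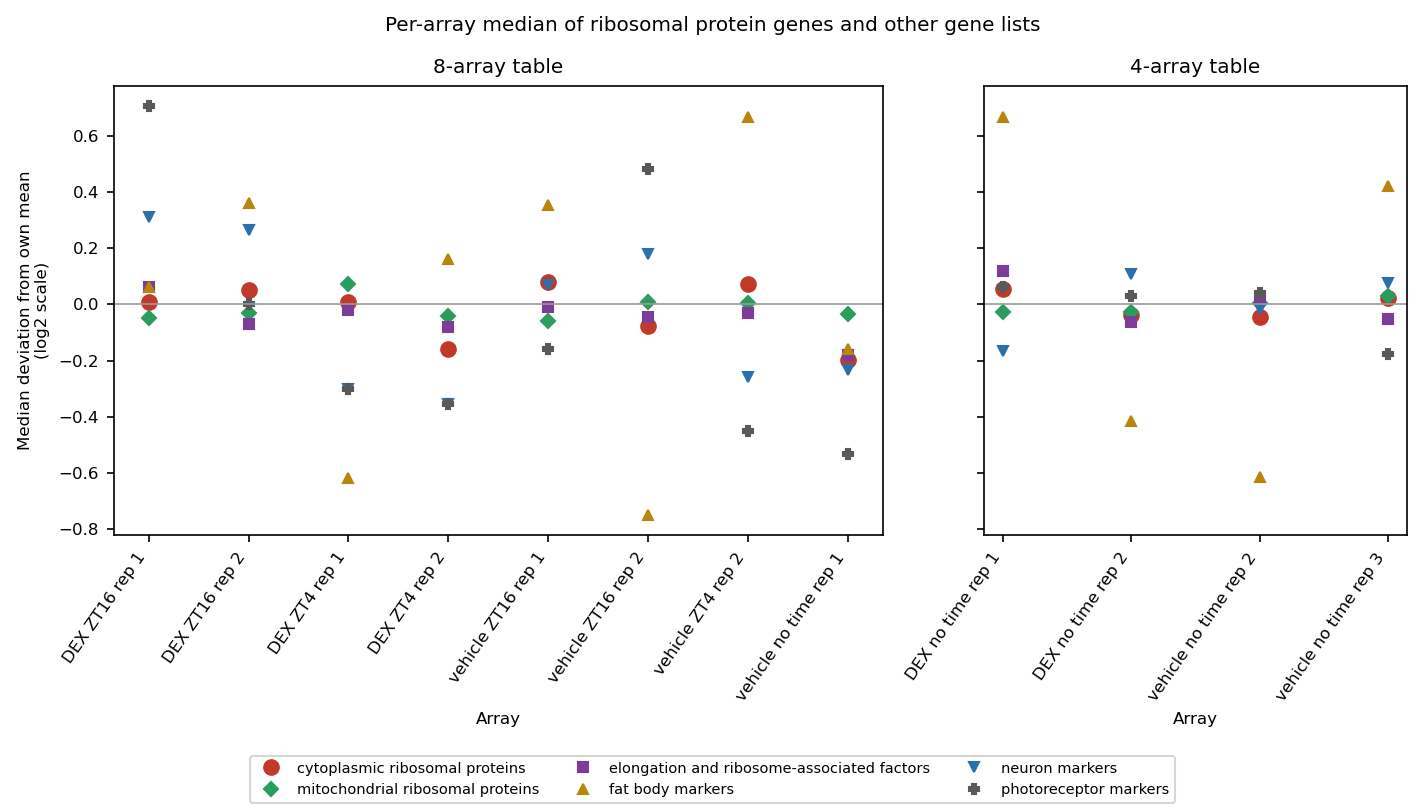
Median deviation of each gene set from its genes' own means (vertical axis, log2 scale) on every array of the 8-array table (left) and the 4-array table (right), DEX arrays left of vehicle arrays. The cytoplasmic ribosomal proteins (red circles) stay between -0.20 and 0.08, while the fat body markers (triangles) run from -0.75 to 0.67.

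The comparison of DEX with vehicle on the timed arrays asks which transcripts respond to activated CLKGR while protein synthesis is blocked. No ribosomal protein gene passed. The test was limma with time as a term, adjusted after Benjamini-Hochberg over all 11261 kept probe sets, and 0 of the 35 genes had an adjusted p under 0.05, where 0% of all probe sets did (smallest adjusted p of a ribosomal protein gene 0.994). At an unadjusted p under 0.05 in limma there were also 0 of 35, against 1.63% higher and 1.76% lower of all probe sets. The largest changes were -0.20 and 0.19 on the log2 scale, and the 95% intervals of all 35 genes lay between -0.69 and 0.73, or 0.622-fold and 1.66-fold. The clock gene tim did not pass either, with a change of 3.21 ± 0.40 (SE) and a limma adjusted p of 0.304. Not passing thus does not show that a gene did not respond.

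RpL36A, whose yeast counterpart lines the site where cycloheximide binds, was the only ribosomal protein gene whose groups did not overlap, 1 of 35 against 2.52% of all probe sets in the lower direction and 0 of 35 against 1.99% in the higher. It read 12.02 and 11.98 with DEX at ZT16 and 11.95 and 11.75 with DEX at ZT4, against 12.05 and 12.05 with vehicle at ZT16 and 12.05 with vehicle at ZT4. All 4 DEX arrays lay below the 3 vehicle arrays, while the vehicle array without a labelled time read 11.76, near the lowest DEX array. The change was -0.12 ± 0.11 (SE), and the limma adjusted p was 0.994.

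Next to RpL36A, the genes below 0 with the smallest p were RpL37-2 at -0.20 ± 0.13 (SE), RpS12 at -0.16 ± 0.17, RpS29 at -0.09 ± 0.11 and RpL40 at -0.11 ± 0.15. RpS12, known in the fly for its role in cell competition, read 10.41 and 10.54 with DEX at ZT16 and 10.48 and 10.41 with DEX at ZT4, against 10.84 and 10.36 with vehicle at ZT16 and 10.66 with vehicle at ZT4. Its vehicle ZT16 replicates lay on both sides of all DEX arrays. In the higher direction these were RpL24-like at 0.19 ± 0.23, RpL10Ab at 0.04 ± 0.12, RpS28b at 0.02 ± 0.13, RpS28a at 0.02 ± 0.09 and RpL7-like at 0.03 ± 0.19. Every one of these 9 changes was smaller than 1.5 times its standard error.

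The changes were small and mostly below 0. Only 6 of 35 genes had a change above 0, against 45.7% of all probe sets, with a median of -0.04 over the genes and -0.01 over all probe sets. The median size of a change was 0.04 over the genes and 0.11 over all probe sets, with median standard errors of 0.13 and 0.17. The count above 0 was 13 with each array centred on its median, 23 without the vehicle array at ZT4 and 3 without vehicle ZT16 replicate 2, so the direction of the group rests on the scaling and on single arrays. The share of all probe sets above 0 was not taken under these alternatives. In paralogues the high and the low gene had changes of 0.02 (RpS28b) and 0.02 (RpS28a), and of -0.01 (RpL37-1) and -0.20 (RpL37-2). RpLP0 had -0.06, and RpLP0-like, the gene related to an assembly factor, had -0.01.

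**Figure D5:**
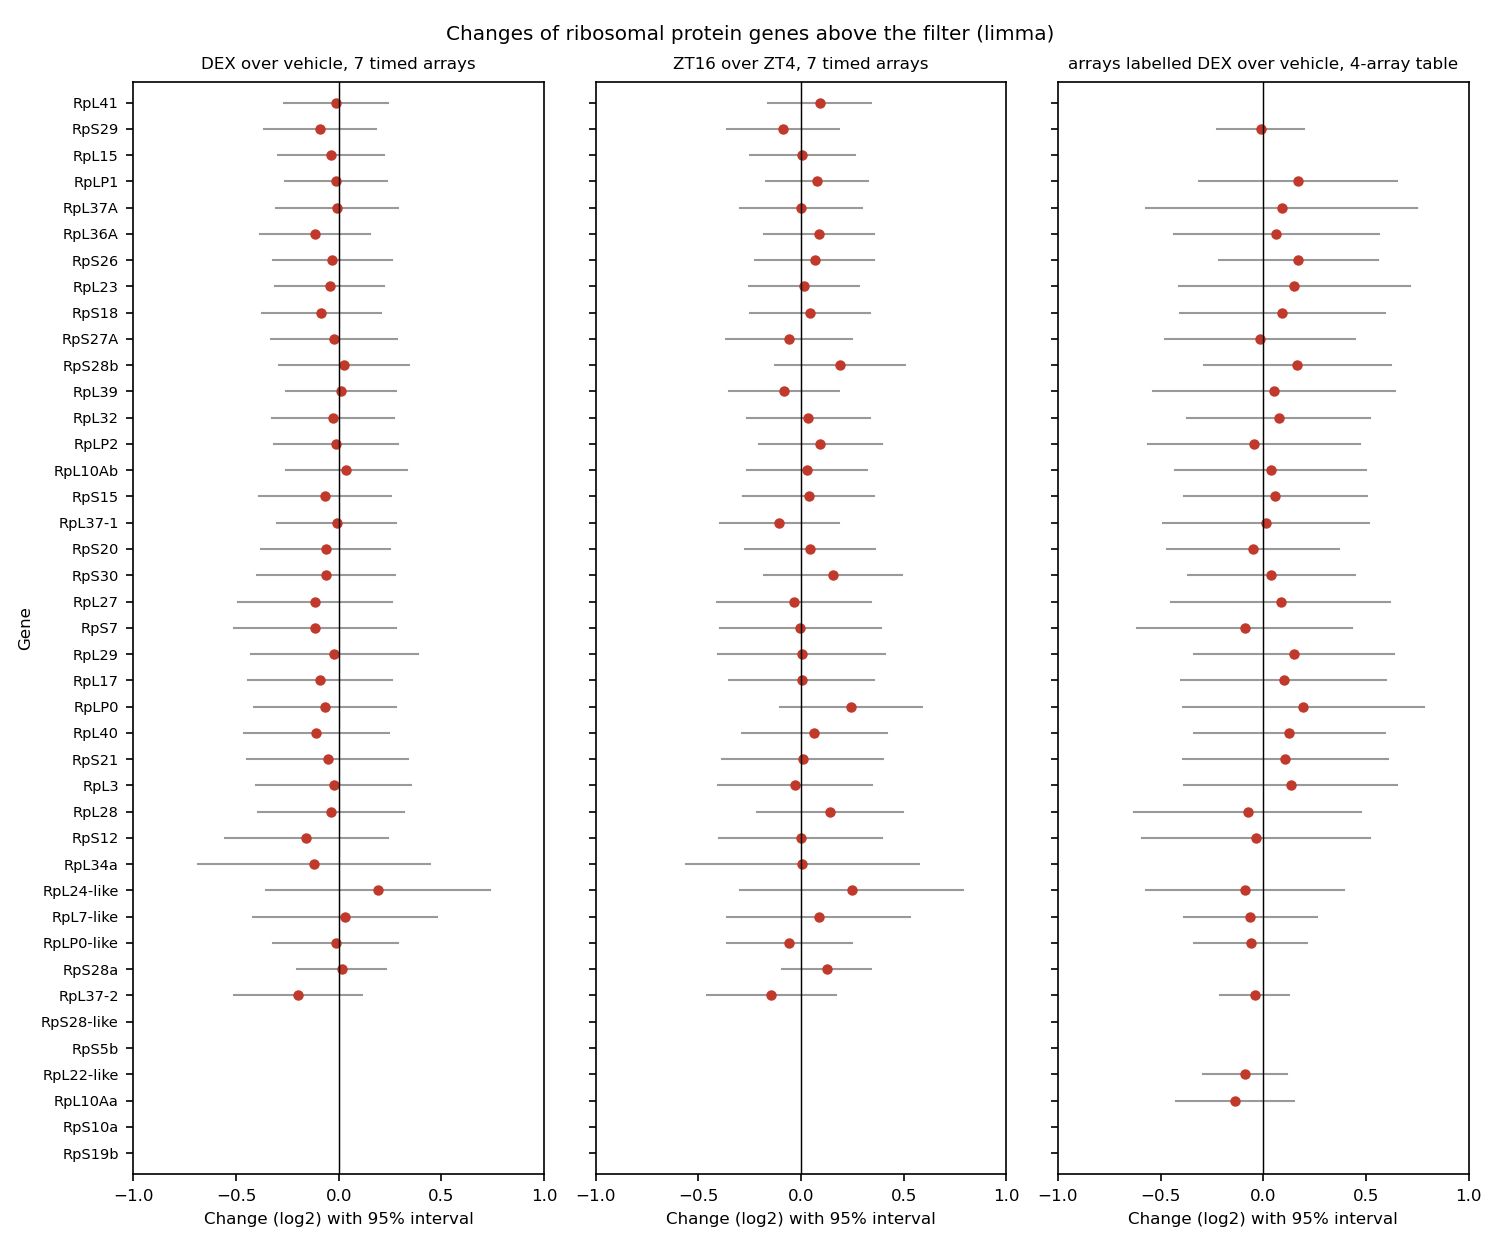
Log2 change (horizontal axis) with its 95% interval from limma for each ribosomal protein gene above the filter (vertical axis, ordered by mean level), for DEX over vehicle on the timed arrays (left), ZT16 over ZT4 (middle) and, from the 4-array table, the arrays labelled DEX over vehicle (right). Every interval includes 0, and all changes lie between -0.20 and 0.25.

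With DEX at ZT16 against vehicle at ZT16, 0 of 35 genes passed limma's adjusted p under 0.05 (0% of all probe sets) and 0 of 35 had an unadjusted p under 0.05, against 1.42% higher and 1.38% lower of all probe sets. A change above 0 was found for 23 of 35 genes, against 44.3% of all probe sets, with a median of 0.03. The genes above 0 with the smallest p were RpS28b at 0.12 ± 0.17 (SE), RpS28a at 0.06 ± 0.12, RpLP1 at 0.07 ± 0.13, RpLP2 at 0.08 ± 0.16 and RpL28 at 0.09 ± 0.19, while the largest change was that of RpL7-like, 0.13. Below 0 the smallest p belonged to RpS12 at -0.12 ± 0.23, RpS29 at -0.06 ± 0.15, RpL36A at -0.06 ± 0.15, RpLP0-like at -0.07 ± 0.18 and RpS18 at -0.04 ± 0.17.

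With DEX at ZT4 against the single vehicle array at ZT4, 0 of 35 genes passed limma's adjusted p under 0.05 (0% of all probe sets). A change above 0 was found for 4 of 35 genes, against 55.5% of all probe sets, with a median of -0.13 over the genes and 0.01 over all. The 4 were RpL24-like at 0.36 ± 0.40 (SE), RpLP0-like at 0.07 ± 0.22, RpL41 at 0.02 ± 0.17 and RpL10Ab at 0.01 ± 0.21. RpL37-2 had -0.55 ± 0.13 (limma unadjusted p 0.00685, adjusted p 0.799), 1 of 35 genes at an unadjusted p under 0.05 against 2.86% of all probe sets in the lower direction, with 0 of 35 against 1.14% in the higher. It was followed by RpS7 at -0.42 ± 0.23, RpL27 at -0.32 ± 0.25, RpLP0 at -0.28 ± 0.22 and RpS15 at -0.24 ± 0.21.

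RpS7 read 10.85 and 10.70 with DEX at ZT4 and 11.19 on the vehicle array at ZT4. RpL27 read 10.93 and 10.80 with DEX at ZT4 and 11.19 on that vehicle array. That vehicle array was the highest of the 8 arrays for both genes, which were picked by their small p. The share of all probe sets with this order was not taken, so the order is no result about these genes. On that array 29 of 35 ribosomal protein genes lay above their own mean, against 4395 of all 11261 kept probe sets. The fat body markers had their highest median deviation there, 0.67. The part of this array in the DEX effect at ZT4 cannot be told apart from vehicle, since no other vehicle array is labelled ZT4.

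The difference between the DEX effect at ZT16 and that at ZT4 was above 0 for 32 of 35 genes, against 45.2% of all probe sets, with a median of 0.15 over the genes and -0.03 over all. No gene passed in limma (0 of 35 at an adjusted p under 0.05, 0% of all probe sets). The gene with the smallest p was RpL37-2 at 0.58 ± 0.17 (SE), with a limma unadjusted p of 0.0159 and adjusted p of 0.997, which is 1 of 35 against 1.93% of all probe sets in the higher direction (0 of 35 against 0.79% in the lower). Next were RpS7 at 0.50 ± 0.30, RpLP0 at 0.35 ± 0.29, RpL28 at 0.33 ± 0.30 and RpL27 at 0.34 ± 0.32. The 3 genes below 0 were RpL24-like at -0.29 ± 0.51, RpLP0-like at -0.14 ± 0.28 and RpL41 at -0.05 ± 0.23. All 35 differences share the 1 vehicle array at ZT4. The 6 fat body markers had a median difference of 1.26, with all 6 above 0, and their part in the ribosomal protein values was not tested.

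The comparison of ZT16 with ZT4 at equal treatment asks whether levels differ between night and day. None of the ribosomal protein genes passed, with 0 of 35 at an adjusted p under 0.05 in limma (0% of all probe sets, smallest adjusted p of a ribosomal protein gene 0.990). At an unadjusted p under 0.05 in limma there were 0 of 35 too, against 1.58% higher and 1.99% lower of all probe sets. All changes lay between -0.15 and 0.25, and the 95% intervals between -0.56 and 0.79, or 0.679-fold and 1.73-fold. A change above 0 was found for 24 of 35 genes, against 54.7% of all probe sets. This count was 15 with quantile normalization, 19 with median centring and 10 without DEX ZT4 replicate 2, the timed array on which the genes read lowest.

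RpLP0, the base of the stalk, had the smallest p. It read 10.90 and 10.83 with DEX at ZT16 and 10.82 and 10.77 with vehicle at ZT16, against 10.54 and 10.43 with DEX at ZT4 and 10.76 with vehicle at ZT4. All 4 arrays at ZT16 lay above the 3 at ZT4, by 0.01 or less where the groups came closest, which made it 1 of 35 genes against 2.44% of all probe sets (0 of 35 against 2.25% in the lower direction). The change was 0.24 ± 0.15 (SE), or 1.18-fold, and the limma adjusted p was 0.990.

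The other genes with small p in this direction were RpS28b at 0.19 ± 0.13 (SE), RpS28a at 0.13 ± 0.09, RpS30 at 0.16 ± 0.14 and RpL24-like at 0.25 ± 0.23. Lower at ZT16 in value were RpL37-2 at -0.15 ± 0.13, RpL37-1 at -0.11 ± 0.12, RpS29 at -0.09 ± 0.11, RpL39 at -0.08 ± 0.11 and RpS27A at -0.06 ± 0.13. RpL10Ab had 0.03 ± 0.12 and RpLP0-like -0.06 ± 0.13. Neuron and photoreceptor markers, by contrast, had medians of 0.47 over 7 and 0.65 over 5 genes at ZT16 over ZT4, 4 and 5 of which were higher at an unadjusted p under 0.05 in limma, against 1.58% of all probe sets, and none after adjustment. Their part in the ribosomal protein values, whose median change was 0.03, was not tested.

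The 4-array comparison of the arrays labelled DEX with vehicle gave no call for a ribosomal protein gene either. Of 33 genes, 0 had an adjusted p under 0.05 in limma, against 0.0119% of all probe sets (smallest adjusted p of a ribosomal protein gene 0.778), and 0 had an unadjusted p under 0.05, against 3.2% higher and 2.22% lower of all. The changes lay between -0.14 and 0.19, with 95% intervals between -0.63 and 0.78, or 0.647-fold and 1.72-fold. A change above 0 was found for 20 of 33 genes, against 36.5% of all probe sets, with a median of 0.05 over the genes and -0.05 over all. That count was 16 with quantile normalization, 28 with median centring and 11 without replicate 1 of the arrays labelled DEX.

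In 5 of 33 genes both arrays labelled DEX lay above both vehicle arrays, against 12.1% of all probe sets. They were RpS26, RpS28b, RpL29, RpL40 and RpL23. RpS28b read 10.54 and 10.37 on the arrays labelled DEX and 10.35 and 10.23 on the vehicle arrays. RpL29, of the large subunit, read 9.85 and 9.89 on the arrays labelled DEX and 9.64 and 9.79 on the vehicle arrays. RpL23 read 8.87 and 8.68 on the arrays labelled DEX and 8.66 and 8.58 on the vehicle arrays. The groups were apart by 0.06 or less in these 3 genes. RpL28, RpL37-2 and RpL7-like were lower without overlap, 3 of 33 against 31.4% of all probe sets.

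By the smallest p the genes higher in value were RpS26 at 0.17 ± 0.16 (SE), RpS28b at 0.17 ± 0.18, RpLP1 at 0.17 ± 0.19, RpLP0 at 0.19 ± 0.24 and RpL29 at 0.15 ± 0.20. The 5 genes below 0 with the smallest p were RpL10Aa at -0.14 ± 0.12, RpL22-like at -0.09 ± 0.08, RpL37-2 at -0.04 ± 0.07, RpLP0-like at -0.06 ± 0.11 and RpL7-like at -0.06 ± 0.13. Genes that read high were below 0 too, among them RpS7 at -0.09 ± 0.21 and RpL28 at -0.08 ± 0.22. For RpL10A and RpL37 the high genes had 0.04 ± 0.19 (RpL10Ab) and 0.01 ± 0.20 (RpL37-1). Among the ribosomal protein genes of this table the lowest means, all below its filter and untested, were those of RpS28a (2.34), RpS19b (2.36) and RpS10a (2.42).

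Array by array, the 33 genes had median deviations of 0.05 and -0.04 on the arrays labelled DEX and of -0.05 and 0.02 on the vehicle arrays. The numbers of genes below their own mean were 8 and 25 on the arrays labelled DEX and 29 and 12 on the vehicle arrays. Of all 8379 kept probe sets 5418 and 5323 lay below theirs on the arrays labelled DEX, and 5381 and 2840 on the vehicle arrays. For the ribosomal protein genes the arrays of each group thus lay on both sides of 0. Fat body markers had 0.67 and -0.42 on the arrays labelled DEX and -0.62 and 0.42 on the vehicle arrays, and muscle markers had -0.51 and 0.22 on the arrays labelled DEX and 0.36 and -0.05 on the vehicle arrays. Whether these tissues bear on the ribosomal protein values was not tested.

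Of the 31 ribosomal protein genes tested in both DEX comparisons, which share no array, 12 had changes of the same sign and 19 of opposite sign, 17 of these below 0 on the timed arrays and above 0 in the 4-array comparison. With the sign of the 4-array comparison turned, 19 would have the same and 12 the opposite sign, and since tim goes against the labels there, neither direction is settled. No gene passed in either comparison, and the counts above 0 within each moved with the scaling. RpS28b had 0.02 ± 0.13 (SE) on the timed arrays and 0.17 ± 0.18 on the 4-array table, RpLP0 -0.06 ± 0.15 and 0.19 ± 0.24, and RpL36A -0.12 ± 0.11 and 0.06 ± 0.20.

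The other genes of translation did not pass in any comparison either. Among 10 kept elongation and ribosome-associated factors, 6 had a change above 0 with DEX on the timed arrays, against 45.7% of all probe sets, with a median of 0.04, and the smallest p belonged to eEF5, a factor for slow peptide bonds, at -0.12 ± 0.12 (SE) and bic, of the nascent peptide complex, at 0.12 ± 0.14. Of 22 initiation factors 14 were above 0, with a median of 0.06, and eIF3a, a core subunit of initiation factor eIF3, had 0.34 ± 0.29 and eIF3j 0.24 ± 0.21. Of 23 ribosome biogenesis genes 17 were above 0, with a median of 0.06, and the nucleolar genes Nopp140 and NHP2 had 0.38 ± 0.23 and 0.30 ± 0.20. Of 9 TOR pathway genes 4 were above 0, with a median of -0.03, and the kinase gene Pdk1 had -0.41 ± 0.19 and REPTOR-BP, which acts with the TOR-controlled factor REPTOR, 0.34 ± 0.23. The 68 mitochondrial ribosomal protein genes had a median of -0.02, with 30 above 0. Cell type markers had medians of -0.03 for neurons, 0.20 for photoreceptors, 0.13 for glia, -0.11 for fat body, 0.06 for muscle, 0.07 for haemocytes and -0.04 for germline.

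For ZT16 over ZT4 the medians of these lists were 0.03 for elongation factors, -0.03 for initiation factors, -0.04 for biogenesis, -0.06 for the TOR pathway and -0.09 for mitochondrial ribosomal proteins. NHP2, a protein of RNA-modifying particles in the nucleolus, had -0.46 ± 0.20 (SE), with a limma unadjusted p of 0.0492 and adjusted p of 0.990. In the 4-array comparison the medians were 0.09, 0.08, -0.08, -0.07 and -0.06 in the same order. There eIF3a had -0.79 ± 0.19 (limma unadjusted p 0.00735, adjusted p 0.746), and biogenesis genes were above 0 in 4 of 22, against 36.5% of all probe sets. Set beside these lists, the ribosomal protein genes had medians of -0.04, 0.03 and 0.05 in the 3 comparisons.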

How the data were processed

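Total RNA of fly heads was labelled with biotin and measured on Affymetrix arrays, per the labels. The authors deposited intensity values in a table of 8 and a table of 4 arrays, and GCRMA is named in the submitters' processing notes, with neither version nor settings. The sources used here do not say whether the tables were normalized together. The highest deposited intensity, 5374150, exceeds the 65535 of a 16-bit scanner, and their natural logs (1.84 to 15.5 and 0.97 to 15.01) span what GCRMA gives on its log2 scale, so natural logs were read as log2 levels. Changes, folds and errors rest on this reading, and p-values do not.

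Control probe sets (183 and 44) were left out. Kept were probe sets whose mean lay above the 40th percentile of their table, 11261 of 18769 and 8379 of 13966. Probe sets were named through the platform annotation, 13647 and 12443 of them with 1 gene symbol, 402 and 327 with several and 4720 and 1196 with none. Each gene is represented by its probe set with the highest mean.

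Changes were tested in R 4.3.3 by limma 3.58.1 (lmFit, then eBayes with trend) at a Benjamini-Hochberg adjusted p under 0.05 over all kept probe sets. The timed fit had treatment and time as terms over 7 arrays, and DEX effects per time came from a fit of the 4 treatment and time groups, where the lone vehicle array at ZT4 borrows the spread of the rest. The vehicle array without a labelled time entered deviations and 1 alternative. The 4-array table was fitted apart. Simulated arrays with known changes were used to test the scripts. The number of arrays limits the precision.

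The members, the gene lists and the tests were chosen with earlier results of these data known. Named are all paralogues, the 5 genes with the smallest p in each direction per comparison, the 3 highest and lowest means per table and up to 2 genes with the smallest p of each other list. The class of genes above level 10 was added after seeing the values. Alternatives changed the filter, normalization, array weights, variance trend, probe set rule, block and single arrays. Marker lists are those of neurons, photoreceptors, glia, fat body, muscle, haemocytes and germline. Plots were drawn with matplotlib 3.10.9.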

Additional observations from a re-analysis of the deposited data

How the results depend on the processing

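No ribosomal protein gene passed limma's adjusted threshold under any alternative tried. Over 472 combinations of a named gene with an alternative, the lowest adjusted p was 0.318, and 26 changes had the other sign without passing under either setting. Counts of genes with a change above 0 were less stable, and the matching shares of all probe sets were not taken under the alternatives. For DEX on the timed arrays the count was 13 with median centring and 18 with all 8 arrays and treatment alone, against 6 of 35, and leaving out single arrays gave 3 to 23 (23 without vehicle ZT4 replicate 2, 13 without DEX ZT4 replicate 2, 14 without vehicle ZT16 replicate 1, 3 without vehicle ZT16 replicate 2) with medians from -0.08 to 0.03. For ZT16 over ZT4 it was 15 with quantile normalization and 19 with median centring, against 24, and 10 to 30 over single arrays left out, with medians from -0.03 to 0.10. The median difference of DEX effects ran from 0.10 to 0.24 over single arrays left out (0.24 without DEX ZT4 replicate 1), with 24 to 32 genes above 0. This range does not cover vehicle ZT4 replicate 2, which all the differences share. As the only array of its group it could not be left out, so the dependence on it is unknown. On the 4-array table the median was -0.015 with quantile normalization (16 genes above 0) and 0.12 with median centring (28 genes), against 0.05 (20 genes). Without single arrays it ran from -0.041 to 0.078, with 11 (without the DEX replicate 1) to 25 genes above 0. The median pairwise r ran from 0.213 to 0.521 over single arrays left out, and was 0.565 over all 8 arrays, 0.422 with quantile normalization, 0.471 with median centring and 0.424 with the mean of all probe sets of a gene. With log2 of the deposited values the median levels were 15.72 and 14.13. The causes of these shifts were not tested.

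No pairing by the replicate numbers of the labels was seen: correlations of deviations between same-numbered arrays were -0.01, -0.24 and 0.07. Vehicle at ZT4 was not among the groups compared, and so few arrays cannot show that replicates were unpaired. With the replicate number as a block there were 0 calls, with 6, 20 and 31 of 35 genes above 0 and medians of -0.05, 0.02 and 0.19 for DEX, time and their interaction. No paired analysis was possible on the 4-array table because 1 vehicle array has no number in its label (it is called replicate 3 as a name only), which leaves 1 number in both groups. Groups held at most 2 arrays, the widest intervals for DEX on the timed arrays reached 0.622-fold and 1.66-fold, and values near the filter level have no reliable size.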
